A study of Mus musculus with 24 samples.

Results

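The MHC class I and peptide-loading genes were followed in a mouse series on the m6A demethylase FTO. The set was chosen by gene symbol and holds 10 of the 24421 genes in the RNA tables, namely H2-D1, H2-K1, H2-Q4, H2-Q6, H2-Q7, H2-T23, B2m, Tap1, Tap2 and Tapbp. The samples were B16-OVA cells, a C57BL/6 mouse melanoma line that carries ovalbumin, and OT-I CD8 T cells, which carry a transgenic receptor for an ovalbumin peptide. Tumour RNA-seq and ATAC-seq (an assay of open chromatin) each compared 3 shFto libraries with 3 shNC libraries, where shFto marks a short hairpin RNA against Fto and shNC its control. For T cell RNA-seq, naive OT-I CD8 T cells of C57BL/6 background met B16-OVA cells for 8 hours in medium with IL-2 and were then sorted. These T cells formed groups of 2 libraries beside shFto-1 cells, 2 beside shFto-2 cells and 2 beside shNC cells. For m6A-seq, an antibody enrichment of m6A-marked RNA, there was 1 antibody library and 1 input per condition. The conditions were shFto cells in DMSO, shNC cells in 5 µM Dac51 and shNC cells in DMSO, each for 48 hours. Dac51 is known here only by its code name. The labels do not say which hairpin the shFto tumour libraries carried, whether the lines were clones, or whether replicates came from separate cultures or animals. The p-values therefore reflect only how far these libraries differ from each other, which may be technical scatter.

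MHC class I molecules carry peptides of a cell's own proteins to its surface, where CD8 T cells read them. A class I complex is a heavy chain, encoded by the H2 genes in the mouse, bound to the light chain beta-2 microglobulin. Peptides cut in the cytosol are pumped into the endoplasmic reticulum by the TAP transporter and loaded onto the heavy chain with help from tapasin. Class I genes are known targets of interferon, NF-κB and the coactivator NLRC5, and tumour cells with low class I are poorly seen by CD8 T cells. H2-K1 and H2-D1 encode the classical heavy chains of this strain, and the OT-I receptor reads its ovalbumin peptide on the H2-K molecule. H2-Q4, H2-Q6, H2-Q7 and H2-T23 are non-classical heavy chain genes, and H2-T23 encodes Qa-1, a ligand of the NKG2A receptor of NK cells. In the RefSeq annotation of GRCm38.p6, B2m lies on chromosome 2 and the other 9 genes lie on chromosome 17.

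The stretches just upstream of 6 starts are shown, and open-chromatin peaks lay at 5 of them in the tumour cells. H2-Q6, with no counted reads and no listed peak, stands beside the others for its likeness to them. RefSeq promoter windows on GRCm38.p6 were matched by symbol for 9 of the 10 genes. The 200 bases before the start of that table are given for 6 of them, 5′ to 3′ on the gene's own strand. For H2-K1 the table holds 2 starts, 14 bases apart, and the more upstream one was used. It lies 272 bases inside the annotated gene, so the H2-K1 window and the H2-K1 distances below refer to an internal start. Capitals mark matches on either strand to the NF-κB consensus, to the interferon motifs GAANNGAAA and GAAANNGAAA, and to CCAAT. These windows are H2-D1 at chr17:35262894-35263093 (plus strand), H2-K1 at chr17:34000348-34000547 (minus strand), H2-Q4 at chr17:35379417-35379616 (plus strand), H2-Q6 at chr17:35424650-35424849 (plus strand), H2-T23 at chr17:36032702-36032901 (minus strand) and B2m at chr2:122147487-122147686 (plus strand).
H2-D1: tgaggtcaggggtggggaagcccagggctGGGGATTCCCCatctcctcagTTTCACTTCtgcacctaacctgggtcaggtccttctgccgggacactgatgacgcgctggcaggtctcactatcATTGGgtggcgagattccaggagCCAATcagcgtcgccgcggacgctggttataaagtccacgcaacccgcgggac
H2-K1: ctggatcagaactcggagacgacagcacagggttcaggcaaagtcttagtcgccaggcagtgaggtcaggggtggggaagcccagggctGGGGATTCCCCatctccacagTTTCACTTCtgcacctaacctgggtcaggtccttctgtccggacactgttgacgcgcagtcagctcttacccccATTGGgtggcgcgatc
H2-Q4: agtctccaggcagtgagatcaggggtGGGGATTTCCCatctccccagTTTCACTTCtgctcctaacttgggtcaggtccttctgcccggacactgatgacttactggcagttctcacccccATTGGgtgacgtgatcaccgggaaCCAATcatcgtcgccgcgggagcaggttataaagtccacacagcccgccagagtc
H2-Q6: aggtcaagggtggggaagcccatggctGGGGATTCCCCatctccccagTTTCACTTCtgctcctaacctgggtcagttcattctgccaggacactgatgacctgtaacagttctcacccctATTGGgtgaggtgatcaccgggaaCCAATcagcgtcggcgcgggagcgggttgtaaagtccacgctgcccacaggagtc
H2-T23: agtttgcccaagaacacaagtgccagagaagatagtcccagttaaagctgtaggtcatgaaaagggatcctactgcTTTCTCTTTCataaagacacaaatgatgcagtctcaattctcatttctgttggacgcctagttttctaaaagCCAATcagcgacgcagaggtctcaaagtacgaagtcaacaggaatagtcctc
B2m: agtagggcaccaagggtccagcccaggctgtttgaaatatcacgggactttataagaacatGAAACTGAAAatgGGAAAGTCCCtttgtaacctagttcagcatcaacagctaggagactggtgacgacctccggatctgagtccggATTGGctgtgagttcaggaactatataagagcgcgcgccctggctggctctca

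The NF-κB consensus occurred in 6 of the 9 windows of 300 bases, those of H2-D1, H2-K1, H2-Q4, H2-Q6, H2-Q7 and B2m, against 4.51% of 32851 promoter windows. GAANNGAAA was found in the same H2 windows but not in B2m, thus in 5 of 9, against 7.52% of all windows. GAAANNGAAA occurred in B2m and H2-T23, against 3.44% of all windows, and CCAAT in 9 of 9, against 37.4%. The windows of Tap1 and Tapbp, which are not printed although their starts had peaks, held CCAAT alone of these motifs. In H2-D1 the NF-κB match ran from 171 to 161 bases before the start and the interferon match from 150 to 142 bases before it. From first letter to first letter the matches were 21 bases apart in H2-D1, H2-K1, H2-Q4 and H2-Q6, and 20 bases apart in H2-Q7. Over the 110 bases from the start of the NF-κB match, H2-D1 and H2-K1 were 89.1% identical, H2-D1 and H2-Q4 87.3%, and H2-Q6 and H2-Q7 97.3%. A match describes these letters only, and none of the files measured binding there.

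RNA totals were 11152404 to 19665589 counts in tumour libraries and 2628158 to 13066355 counts in T cell libraries, the shallowest being shNC replicate 1 of the T cells. Fto averaged 31.2 ± 2.65 CPM (counts per 1000000 of the scaled library size) in shFto tumour cells and 102.5 ± 9.32 CPM in shNC tumour cells (SD, n = 3 each), a log2 fold change of -1.72 (SE 0.10, adjusted p = 1.60e-10, edgeR). The 8 pigment cell markers summed to 22511 to 23391 CPM in shFto tumour libraries and 17926 to 18924 CPM in shNC tumour libraries, and 5 of them were called higher in shFto cells, a shift whose part in the values below was not tested. The 7 measured CD8 T cell markers summed to at most 7.14 CPM there, with Cd8a at 0 counts in all 6. H2-Q6 had 0 counts in all 12 RNA libraries, and H2-Q7 had 0 counts in 11 and 3 counts in shNC replicate 2 of the T cells. Per 1000000 of the unscaled library totals, a count of 3 would equal 0.153 to 0.269 in the tumour libraries and 0.230 to 1.14 in the T cell libraries. Reads shared by these near-identical copies could have been dropped or split by the counting, which is not described in the sources used here. Their values, and those of the other heavy chain genes, are therefore uncertain as levels of single genes.

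In tumour cells the question was whether class I and loading RNA differ once Fto is reduced. H2-D1, H2-Q4, B2m, Tap2 and Tapbp were higher in shFto cells than in shNC cells, by 1.37 to 2.1 times. H2-K1 and Tap1 did not pass the test, and neither did H2-T23, whose fitted change was negative. Of the 10 genes, 8 had enough counts for edgeR's quasi-likelihood test, and 5 were higher and 0 lower at an adjusted p under 0.05 over all 11718 tested genes. Of all tested genes, 15.9% were called higher and 16.9% lower. Higher genes made up 48.5% of these calls, and 60% when library totals were used for scaling, which left the count of 5 as it was. The same 5 genes had every shFto library above every shNC library, as 22.5% of all tested genes did. The median log2 fold change was 0.46 over the 8 tested genes and 0.00 over all tested genes.

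**Figure D1:**
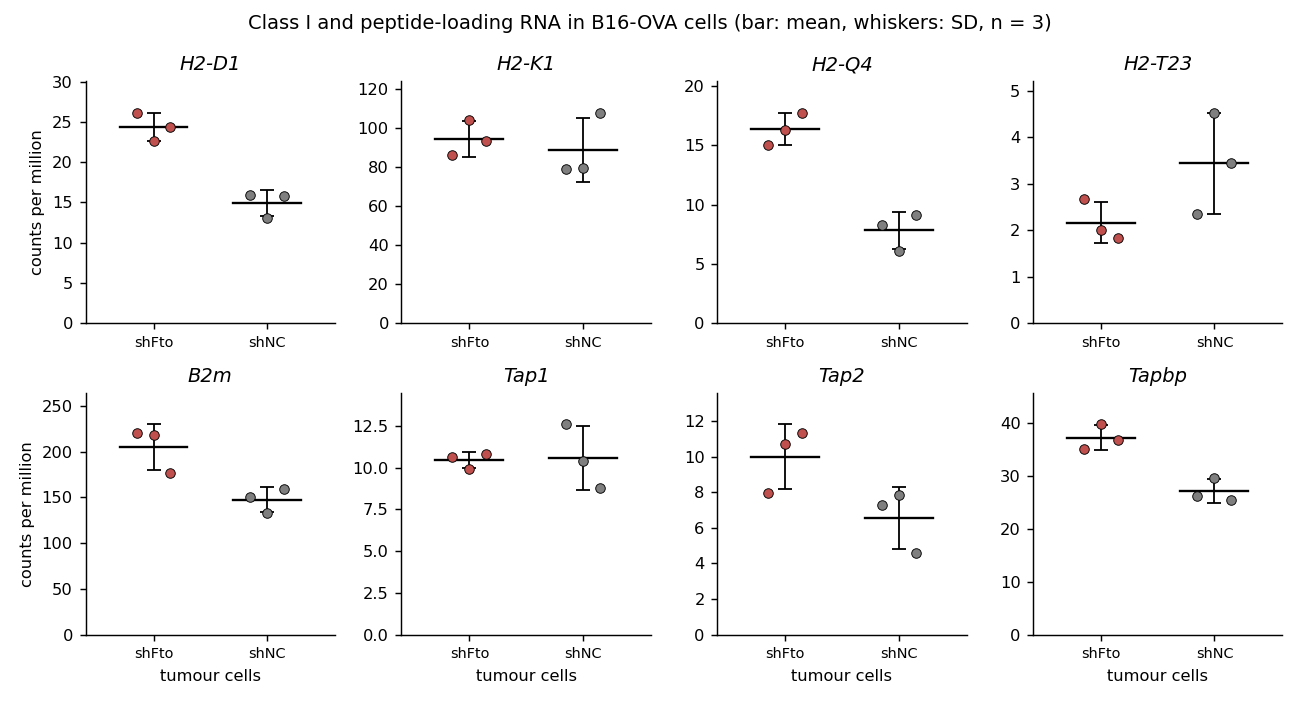
CPM (y axis, from 0) of the 8 tested genes in each B16-OVA library, shFto left and shNC right, with 1 point per library. Bars are means and whiskers SD (n = 3 each). The shFto points of H2-D1, H2-Q4, B2m, Tap2 and Tapbp lie above every shNC point, while those of H2-K1, H2-T23 and Tap1 overlap shNC.

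Among the heavy chains, H2-D1 had 26.1, 22.6 and 24.4 CPM in shFto libraries, against 15.9, 13.1 and 15.8 CPM in shNC libraries. The groups did not overlap, and the fitted log2 fold change was 0.72 (SE 0.13, adjusted p = 0.000308, edgeR). H2-Q4 had 15.1, 16.3 and 17.8 CPM in shFto libraries, against 8.28, 6.10 and 9.13 CPM in shNC libraries. Its lowest shFto library stood well above its highest shNC library, and its log2 fold change of 1.07 (SE 0.16, adjusted p = 7.42e-05, edgeR) was the largest of the set. H2-K1, the heavy chain that OT-I cells read, had 85.9, 104.2 and 93.5 CPM in shFto libraries, against 78.8, 79.4 and 107.8 CPM in shNC libraries. The highest value belonged to shNC replicate 3, and the log2 fold change was 0.09 (SE 0.11, adjusted p = 0.557, edgeR). Without that shNC library it was 0.26 with an adjusted p of 0.0496, and without each of the other libraries in turn it was 0.019 to 0.16 and did not pass. H2-T23 was scarce, with 2.66, 2.01 and 1.82 CPM in shFto libraries, against 2.35, 4.53 and 3.44 CPM in shNC libraries. The groups overlapped, and the log2 fold change was -0.68 (SE 0.32, adjusted p = 0.106, edgeR).

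The light chain gene B2m had 220.6, 218.3 and 176.6 CPM in shFto libraries, against 150.1, 132.6 and 159.6 CPM in shNC libraries. All shFto values were above the shNC values, with a log2 fold change of 0.48 (SE 0.09, adjusted p = 0.000749, edgeR). Tapbp, which encodes tapasin, had 35.0, 39.7 and 36.7 CPM in shFto libraries, against 26.2, 29.6 and 25.4 CPM in shNC libraries. These groups were also apart, with a log2 fold change of 0.45 (SE 0.11, adjusted p = 0.00325, edgeR). The genes of the TAP transporter subunits gave different fitted values. Tap2 had 7.93, 10.7 and 11.3 CPM in shFto libraries, against 7.29, 7.84 and 4.57 CPM in shNC libraries. The lowest shFto value lay just above the highest shNC value. Its log2 fold change was 0.60 (SE 0.21, adjusted p = 0.0326, edgeR), and the adjusted p was 0.0654 without shFto replicate 2, 0.0990 without shFto replicate 3 and 0.145 without shNC replicate 3. Tap1 had 10.6, 9.94 and 10.8 CPM in shFto libraries, against 12.6, 10.4 and 8.78 CPM in shNC libraries, and the fitted log2 fold change was -0.01 (SE 0.16). The difference between Tap2 and Tap1 was not tested.

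Because heavy chain genes are alike in sequence, the counts of 29 heavy chain genes were also summed per library and tested as 1 row. The sum was 136, 151 and 145 CPM in shFto libraries, against 112, 109 and 141 CPM in shNC libraries, and H2-K1, H2-D1, H2-Q4 and H2-T23 supplied 93.7% to 96.7% of it. The shNC library with 141 CPM lay within the shFto range. The log2 fold change of the sum was 0.25 (SE 0.09, adjusted p = 0.0446, edgeR). The call was lost when any library other than shNC replicate 3 was left out, with adjusted p between 0.0538 and 0.183.

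Over all genes tested in tumour cells, 15.9% were called higher and 16.9% lower, the shares to set beside the lists that follow. Around the set, 14 of 15 genes that cut, trim or fold peptides and chains were tested, and 5 were higher and 0 lower in shFto tumour cells. The smallest adjusted p belonged to Erap1, which trims peptides in the endoplasmic reticulum, at 14.0 ± 0.70 CPM in shFto cells and 7.92 ± 1.96 CPM in shNC cells (SD, n = 3 each; log2 fold change 0.83, adjusted p = 0.00123, edgeR). The chaperone genes Pdia3 and Canx rose by 0.33 and 0.36 and the trimming enzyme gene Lnpep by 0.36 on the log2 scale. The count of 5 was 3 without shFto replicate 1, shFto replicate 2 or shNC replicate 3, and the count of 0 lower was 2 without shFto replicate 3 and 1 with DESeq2. Of 22 other class I genes, 7 were tested. Mr1, which presents microbial metabolites, rose by 1.56 and Hfe, an iron regulator, fell by 0.65 on the log2 scale. Of 21 genes of the interferon and class I control path, 20 were tested, with 2 higher and 6 lower. The count of 2 higher genes was 1 without shFto replicate 1. Irf1, an interferon-induced factor, had a log2 fold change of -0.58, Jak1, a receptor kinase, one of -0.34, and Rfxap, a subunit of the RFX complex at class I promoters, one of -0.54. Nlrc5, the class I coactivator, was also lower, at 2.47 ± 0.25 CPM in shFto cells and 4.93 ± 0.79 CPM in shNC cells (SD, n = 3 each; log2 fold change -1.01, adjusted p = 0.00539, edgeR). Nlrc5 falls outside the rule for naming genes and was chosen after its values were seen. The same holds for Ifnar1, 1 of the 2 higher genes of that path, with a log2 fold change of 0.29 (adjusted p = 0.0100, edgeR). Of 11 class II genes, 2 had enough counts to be tested and 0 passed.

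In the T cells the libraries asked how the same genes stood in CD8 T cells that had met knockdown or control tumour cells. Heavy chain and loading RNA was lower beside shFto-2 cells than beside shNC cells for the 8 genes tested, by 0.27 to 1.12 on the log2 scale. Beside shFto-1 cells, H2-D1, H2-Q4 and Tap2 were lower, and the other 5 did not pass the test. Against shNC, 3 of the 8 tested genes were lower and 0 higher beside shFto-1, where 6.84% of 12824 tested genes were called lower and 15.4% higher. Beside shFto-2, 8 were lower and 0 higher, where 13.3% of tested genes were called lower and 20.4% higher. Beside shFto-1, higher genes made up 69.3% of the calls, against 45.7% when library totals were used for scaling. Beside shFto-2 these shares were 60.5% and, with library totals, 44.8%. Median log2 fold changes of the 8 genes were -0.33 beside shFto-1 and -0.75 beside shFto-2, against 0.02 and -0.03 over all tested genes. Both libraries lay below both shNC libraries for 7 of the 8 genes beside shFto-1 and 8 of 8 beside shFto-2, where 26.9% and 32.4% of all tested genes did so. The comparisons share the shNC libraries, so they are not independent of each other.

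**Figure D2:**
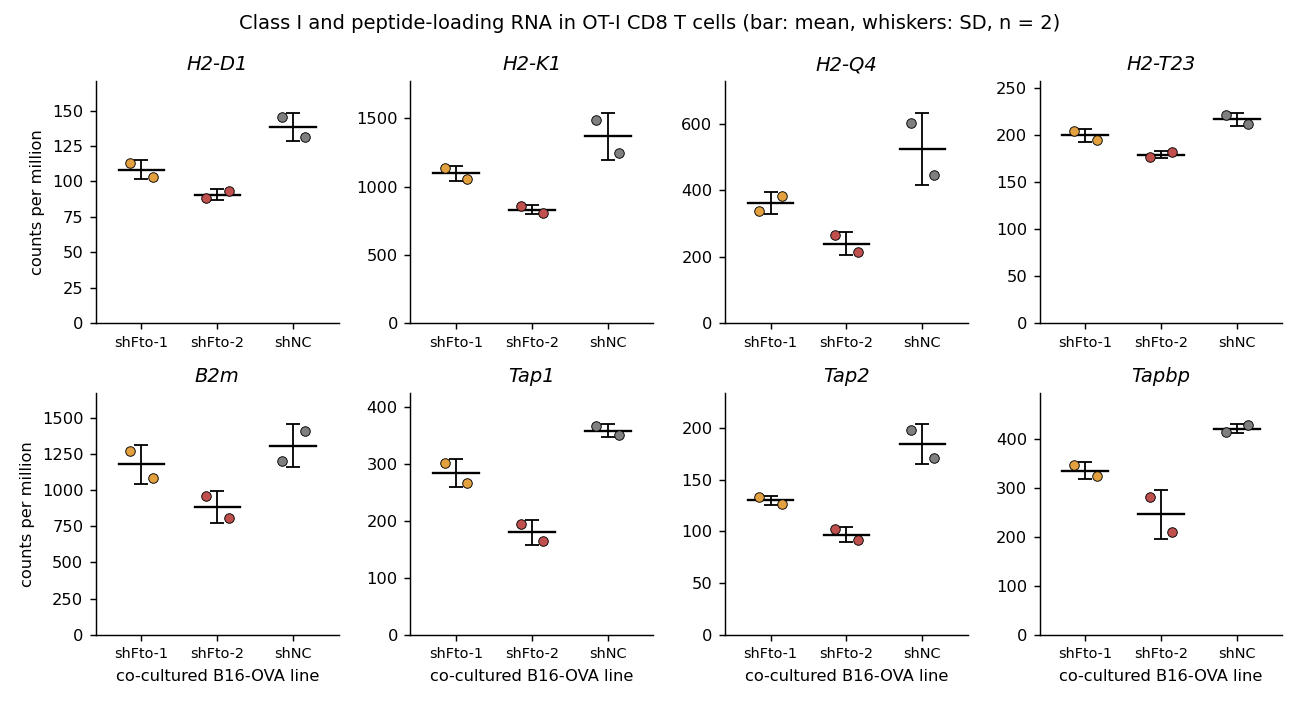
CPM (y axis, from 0) of the 8 tested genes in each T cell library, grouped by the co-cultured line, with shFto-1 and shFto-2 left of shNC and 1 point per library. Bars are means and whiskers SD (n = 2 each). The shFto-2 points lie below the shNC points in every panel, and in the B2m panel a shFto-1 point lies among the shNC points.

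H2-K1 had 1136 and 1056 CPM beside shFto-1 cells and 854 and 808 CPM beside shFto-2 cells, against 1491 and 1246 CPM beside shNC cells. The groups followed each other without overlap. The log2 fold change was -0.72 (SE 0.10, adjusted p = 0.000469, edgeR) for shFto-2 and -0.32 (SE 0.10, adjusted p = 0.0516, edgeR) for shFto-1. H2-D1 had 113 and 103 CPM beside shFto-1 cells and 88.1 and 93.4 CPM beside shFto-2 cells, against 145.7 and 131.6 CPM beside shNC cells. Its log2 fold changes were -0.35 (adjusted p = 0.0461) for shFto-1 and -0.61 (adjusted p = 0.00184, edgeR) for shFto-2. Of the 4 tested heavy chain genes of the set, H2-Q4 had the largest fitted change beside both lines. It had 337.8 and 384.2 CPM beside shFto-1 cells and 265.3 and 214.3 CPM beside shFto-2 cells, against 602.5 and 447.4 CPM beside shNC cells. The log2 fold changes were -0.54 (adjusted p = 0.0316) for shFto-1 and -1.12 (adjusted p = 0.000372, edgeR) for shFto-2. H2-T23, the Qa-1 gene, had 204.0 and 194.4 CPM beside shFto-1 cells and 175.9 and 181.3 CPM beside shFto-2 cells, against 221.4 and 211.3 CPM beside shNC cells. Its shift was the smallest, at -0.12 (adjusted p = 0.445) for shFto-1 and -0.27 (adjusted p = 0.0451, edgeR) for shFto-2, and the shFto-2 call was lost without any 1 library other than shFto-1 replicate 2.

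B2m had 1273 and 1082 CPM beside shFto-1 cells and 963 and 805 CPM beside shFto-2 cells, against 1204 and 1413 CPM beside shNC cells. Beside shFto-1 the values spanned the lower shNC value and the change of -0.15 did not pass (adjusted p = 0.451, edgeR). For shFto-2 the log2 fold change was -0.57 (SE 0.12, adjusted p = 0.00542, edgeR), with an adjusted p of 0.0546 without shNC replicate 2. Tap1 and Tap2 encode the subunits of the transporter that B2m-bound heavy chains depend on for peptide. Tap1 had 301.5 and 267.1 CPM beside shFto-1 cells and 195.6 and 164.4 CPM beside shFto-2 cells, against 367.1 and 350.9 CPM beside shNC cells. Its log2 fold changes were -0.33 (adjusted p = 0.0600) for shFto-1 and -0.99 (adjusted p = 0.000124, edgeR) for shFto-2. Tap2 had 133.2 and 126.7 CPM beside shFto-1 cells and 102.2 and 91.7 CPM beside shFto-2 cells, against 198.2 and 171.3 CPM beside shNC cells, and was lower in both comparisons. The log2 fold changes were -0.50 (adjusted p = 0.0110) and -0.92 (adjusted p = 0.000194, edgeR) in that order. Tapbp had 346.4 and 323.2 CPM beside shFto-1 cells and 280.7 and 209.5 CPM beside shFto-2 cells, against 414.3 and 426.6 CPM beside shNC cells. The groups did not overlap, and the log2 fold changes were -0.33 (adjusted p = 0.107) for shFto-1 and -0.78 (adjusted p = 0.00124, edgeR) for shFto-2.

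The count of 3 beside shFto-1 depended on the libraries and the scaling. It was 0 without shFto-1 replicate 1, 1 without shFto-1 replicate 2 or shNC replicate 1, and 6 without either shFto-2 library, which enter that comparison only through the shared spread and the scaling. H2-D1 lost its call with the replicate block (adjusted p 0.0513) and without any 1 of the shFto-1 or shNC libraries (0.0821 to 0.177), H2-Q4 without shFto-1 replicate 1 (0.196) or shNC replicate 1 (0.172), and Tap2 without shFto-1 replicate 1 (0.0594) or 2 (0.0552). With the replicate block H2-K1 (adjusted p 0.0235) and Tap1 (0.0287) were called lower along with H2-Q4 and Tap2. With library totals as the scaling the count was 6, and with the median-ratio scaling of edgeR (RLE) it was 5. The summed heavy chains were 1940 and 1888 CPM beside shFto-1 cells and 1513 and 1387 CPM beside shFto-2 cells, against 2706 and 2234 CPM beside shNC cells. The log2 fold change of the sum was -0.37 (SE 0.10, adjusted p = 0.0279, edgeR) for shFto-1 and -0.77 (adjusted p = 0.000299, edgeR) for shFto-2. For shFto-1 the adjusted p was 0.0913 without shFto-1 replicate 1, 0.0839 without shFto-1 replicate 2 and 0.130 without shNC replicate 1.

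Markers of the T cells and of the tumour cells were measured in the same libraries. The 7 measured CD8 T cell markers summed to 1712 and 1644 CPM beside shFto-1 cells and 1369 and 1227 CPM beside shFto-2 cells, against 2122 and 1913 CPM beside shNC cells. Beside shFto-2, 7 of 7 were called lower (median log2 fold change -0.64), and beside shFto-1, 3 of 7 were (median log2 fold change -0.32). The 8 pigment cell markers summed to 1944 and 1769 CPM beside shFto-1 cells and 1691 and 1914 CPM beside shFto-2 cells, against 1314 and 1694 CPM beside shNC cells. Beside shFto-1, 3 of the 8 were called higher and 0 lower, and beside shFto-2, 3 higher and 1 lower. Pmel, a melanosome fibre gene, rose by 2.13 beside shFto-1 and 2.17 beside shFto-2 on the log2 scale. Tyr, the pigment enzyme tyrosinase, rose by 1.83 and 2.11 in that order, and Tyrp1 by 0.67 and 0.69. Mlana had a log2 fold change of 0.06 beside shFto-1, which did not pass, and of -0.56 beside shFto-2, the 1 lower call. Dct, Gpnmb, Mitf and Sox10 did not pass beside either line. None of these 8 genes was at 0 in any T cell library. The 8 macrophage and dendritic cell markers summed to 3.51 to 12.1 CPM and the 4 B cell markers to 2.25 to 4.33 CPM over the 6 libraries. The part that cell mixture has in the class I values was not tested, and in bulk libraries fewer cells of a type and less RNA per cell cannot be told apart.

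The T cells beside shFto-2 were also set against those beside shFto-1. Tap1 was lower beside shFto-2, with a log2 fold change of -0.66 (SE 0.11, adjusted p = 0.0264, edgeR), and none of the other 7 tested genes passed. Over all tested genes, 1.42% were called lower and 0.491% higher. The other 7 had log2 fold changes of -0.59 to -0.16, each with both shFto-2 values below both shFto-1 values. Over all tested genes 23.2% lay apart in this direction. Without shFto-1 replicate 1 or shFto-2 replicate 2, 0 genes of the set passed, and the adjusted p of Tap1 was 0.210 and 0.110. Without shFto-2 replicate 1, 4 passed, and without either shNC library 3 did.

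**Figure D3:**
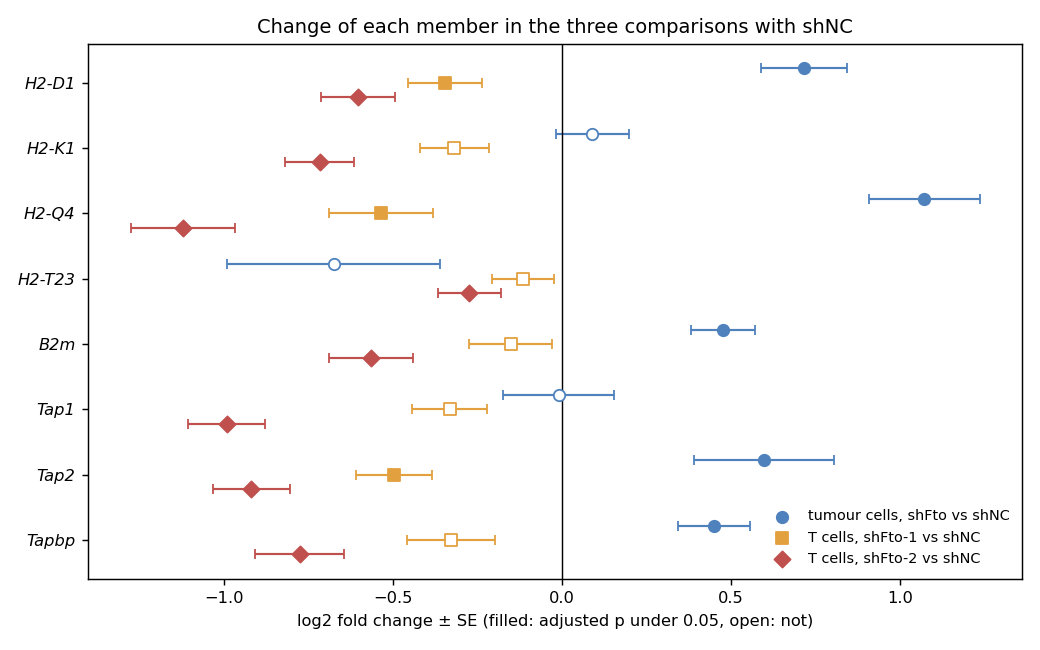
Log2 fold change ± SE (x axis) of the 8 tested genes (y axis) in shFto tumour cells against shNC tumour cells (circles), and in T cells beside shFto-1 (squares) and shFto-2 (diamonds) against T cells beside shNC. Filled symbols have an adjusted p under 0.05. The filled tumour symbols lie right of 0, from 0.45 to 1.07, and the filled T cell symbols lie left of it, from -1.12 to -0.27.

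Of 20 tested genes of the interferon path in the T cells, 2 were higher and 9 lower beside shFto-1, and 2 higher and 14 lower beside shFto-2. Over all tested genes the shares were 15.4% higher and 6.84% lower beside shFto-1, and 20.4% higher and 13.3% lower beside shFto-2. Ifnar1, a receptor chain for type I interferon, had log2 fold changes of -0.79 for shFto-1 and -1.44 for shFto-2. Nfkb1, a subunit of NF-κB, was higher, by 0.75 and 0.98 on the log2 scale in that order. Ifng, the gene of interferon gamma, rose by 1.02 beside shFto-1 and by 0.75 beside shFto-2 on the log2 scale. Jak1 had log2 fold changes of -0.68 beside shFto-1 and -1.13 beside shFto-2, both past the test. The count of 9 lower genes beside shFto-1 was 5 without shFto-1 replicate 1, 4 without shFto-1 replicate 2 and 4 without shNC replicate 2. Between the shFto lines, 4 of the 20 were lower beside shFto-2, where 1.42% of all tested genes were. Among the 4 were Irf1, Ifnar1 and Ifngr1, with log2 fold changes of -0.86, -0.65 and -0.95 in that order (edgeR). That count was 0 without shFto-1 replicate 1, 9 without shFto-2 replicate 1 or without the expression filter, and 10 with DESeq2.

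The genes that supply and fold peptides went both ways. Beside shFto-1, 5 of 15 were higher and 2 lower, and beside shFto-2, 6 were higher and 4 lower. The shares over all tested genes, for these and the lists below, were 15.4% higher and 6.84% lower beside shFto-1. Beside shFto-2 they were 20.4% higher and 13.3% lower. Psme3, a proteasome activator subunit, rose by 0.72 beside shFto-1 and 1.02 beside shFto-2, and the chaperone genes Canx and Calr rose by 0.64 and 0.59 beside shFto-1 and by 0.82 and 0.78 beside shFto-2. Lnpep had log2 fold changes of -0.64 beside shFto-1 and -0.84 beside shFto-2. The immunoproteasome subunit genes Psmb8 and Psmb9, chosen after their values were seen, each had a log2 fold change of -0.95 beside shFto-2, and -0.39 and -0.34 beside shFto-1, where neither passed. Psmb10, tested in the same list, had log2 fold changes of -0.44 beside shFto-2 and -0.16 beside shFto-1 and passed in neither comparison. Without shNC replicate 1, 3 genes were higher beside shFto-2, as with library totals. The count of 2 lower genes beside shFto-1 was 1 without either shFto-1 library or without shNC replicate 1, and 4 without shNC replicate 2. Of 22 other class I genes, 8 were tested, with 1 lower beside shFto-1 and 4 lower beside shFto-2. H2-Q5 averaged 27.0 ± 4.86 CPM beside shFto-2 cells and 66.4 ± 2.01 CPM beside shNC cells (SD, n = 2 each; log2 fold change -1.28), with a log2 fold change of -0.46 that did not pass beside shFto-1, and H2-K2 had log2 fold changes of -1.02 beside shFto-1 and -1.27 beside shFto-2. Of 7 tested class II genes, 1 was higher and 1 lower beside shFto-1, and 1 higher and 2 lower beside shFto-2. Cd74, the invariant chain, was higher beside shFto-1 by 2.68 and beside shFto-2 by 2.62 on the log2 scale, with only 16 counts over both shNC libraries. Without shFto-1 replicate 1, 0 class II genes were higher beside shFto-1.

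Levels in tumour cells and T cells come from separately scaled tables and are given side by side without a test. H2-K1 stood at 78.8 to 107.8 CPM in tumour libraries and at 808 to 1491 CPM in T cell libraries. The corresponding ranges were 8.78 to 12.6 CPM and 164 to 367 CPM for Tap1, and 1.82 to 4.53 CPM and 175.9 to 221.4 CPM for H2-T23. Across the 6 libraries of each table, the genes whose log2 CPM tracked the mean of the 8 tested genes most closely were Arap2, Intu and Rhox5 in tumour cells (Pearson r 0.998 to 0.999, of 8758 genes compared). In T cells they were Ip6k1, Cdkn1b and Myb (r 0.999, of 7996 genes compared). These libraries share their groups, so the values describe likeness only.

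In ATAC-seq of the tumour cells, the starts of 8 of the 10 genes were covered by a peak in each of 6 libraries. They were H2-D1, H2-K1, H2-Q4, H2-T23, B2m, Tap1, Tap2 and Tapbp, and H2-Q6 and H2-Q7 had no listed peak within 2 kb in any library. How reads shared by near-identical copies were treated in these lists is not given in the sources used here, so that absence is uncertain. Over all protein-coding genes, 67.9% of 21887 had a peak in the gene or within 2 kb of it in every library. That rule is looser than a peak at the start, and by it the set also counts 8 of 10. The share of all genes with a peak at the start was not computed. The lists held 67427 to 72055 peaks in shFto libraries and 74551 to 81944 in shNC libraries. Peaks were called per library by the authors, and the fold enrichments quoted are the authors' values per peak, which were not tested between lists.

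**Figure D4:**
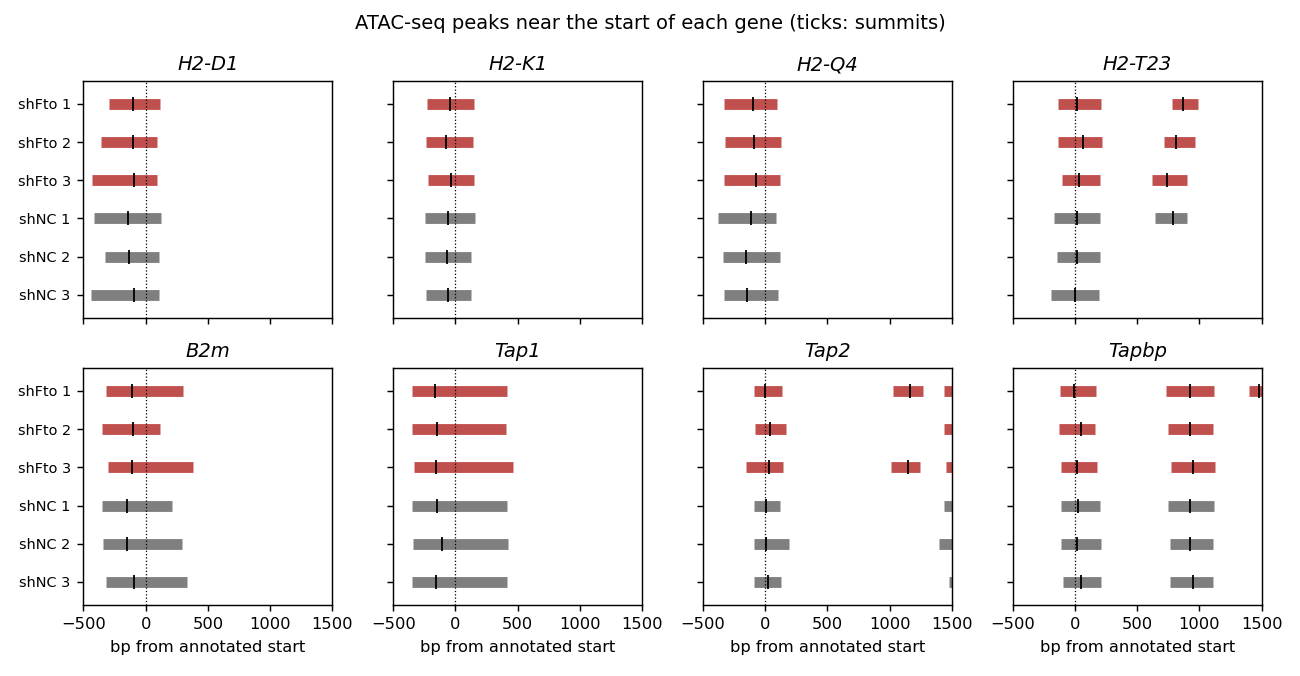
Peaks near the annotated start (dotted line at 0; x axis in bp on the gene's strand) of 8 genes, with 1 row per library, the 3 shFto rows above the 3 shNC rows, and ticks at the summits. Each gene has a peak at its start in 6 of 6 rows, while the second H2-T23 peak appears in 3 shFto rows and 1 shNC row.

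At H2-D1, H2-K1, H2-Q4 and H2-T23 the peaks covered the start that the sequences printed above lead up to. The H2-D1 peak was 411 to 549 bp wide with its summit 93 to 140 bp before the start, a stretch that begins just after the interferon match. Its fold enrichment was 13.3 to 13.7 in shFto lists and 14.4 to 15.6 in shNC lists. The H2-Q4 summit lay 72 to 157 bp before the start, at 17.1 to 21.3 fold in shFto lists and 17.1 to 19.2 fold in shNC lists. The H2-K1 summit lay 38 to 73 bp before the start, at 19.6 to 21.0 fold in shFto lists and 22.8 to 24.3 fold in shNC lists. H2-T23 had its summit 3 to 64 bp after the start, at 9.18 to 12.5 fold in shFto lists and 11.1 to 12.6 fold in shNC lists. A weaker H2-T23 peak, of 4.37 to 5.35 fold, lay inside the gene in 3 of 3 shFto lists and in shNC replicate 1.

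The B2m peak was 19.7 to 20.4 fold in shFto lists and 19.0 to 21.6 fold in shNC lists, with its summit 92 to 151 bp before the start, and also lay over the neighbouring gene Patl2. The Tap1 peak, which also lay over the proteasome subunit gene Psmb9, was the widest of the peaks at the starts, at 750 to 797 bp, with 17.4 to 18.8 fold in shFto lists and 17.3 to 19.3 fold in shNC lists. Tap2 had a start peak of 7.27 to 7.83 fold in shFto lists and 6.10 to 8.77 fold in shNC lists. Inside Tap2 a second peak began 1396 to 1478 bp after the start in 6 of 6 lists. A further one, of 4.73 to 4.97 fold, appeared 1007 to 1265 bp after the start in shFto replicates 1 and 3 only. The start peak of Tapbp was weaker, at 4.13 to 4.78 fold in shFto lists and 4.58 to 5.91 fold in shNC lists. A peak of 10.1 to 12.2 fold lay 733 to 1128 bp inside Tapbp in 6 of 6 lists.

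The m6A lists, named by the authors as exomePeak output and deposited as 1 per condition, held 10811 peaks for shFto, 9850 for Dac51 and 8479 for shNC. Of the 10 genes, 2 had a peak in the shFto list, 4 in the Dac51 list and 3 in the shNC list, all of them among the 8 tested in tumour RNA. Among the genes tested in tumour RNA, the shares with a peak were 53.6%, 49.9% and 44.2% in that order of lists. Counted per gene, no gene of the set had a peak in the shFto list and none in the shNC list, against 11.7% of tested genes. Tapbp alone had a peak in the Dac51 list and none in the shNC list, against 8.92%. This count does not see single sites, which differed between lists for Tap2. H2-D1, H2-Q6, H2-Q7, H2-T23, B2m and Tap1 had no peak in any list. For the near-identical copies H2-Q6 and H2-Q7 this absence is uncertain, as the treatment of shared reads is not given. With 1 list per condition there was no test.

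**Figure D5:**
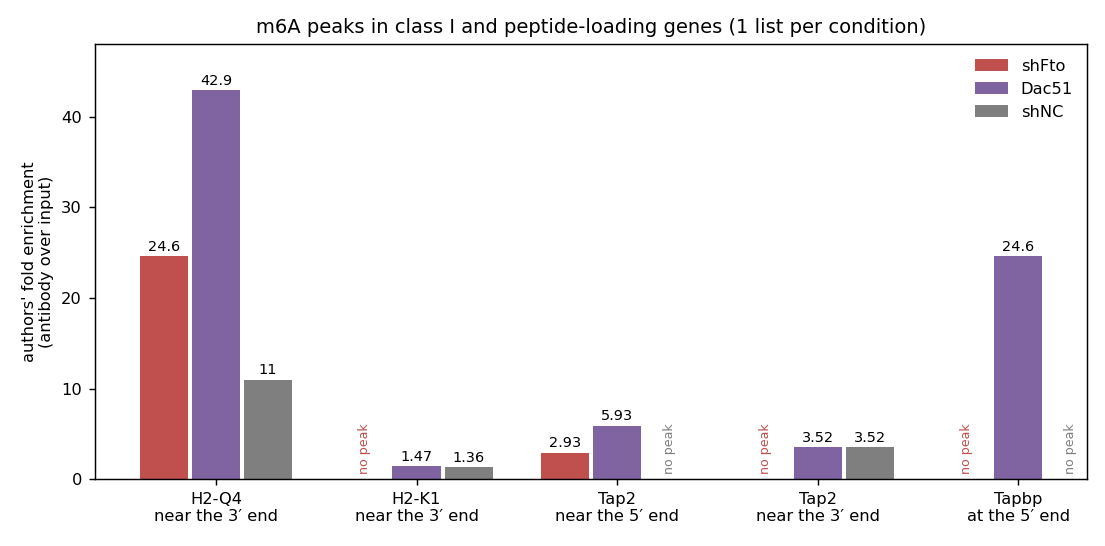
The authors' fold enrichment of antibody over input (y axis, from 0) of each m6A peak in the set, with bars for shFto, Dac51 and shNC from left to right and places without a peak marked. H2-Q4 has a peak in all 3 lists, at 24.6, 42.9 and 11 fold in that order.

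H2-Q4 had an m6A peak at the same place in each of the 3 lists, while the peaks of Tap2 lay at different places. The peak spanned chr17:35384107-35384495 (mm10, plus strand) in the shFto and Dac51 lists and chr17:35384107-35384525 in the shNC list, ending 149 to 179 bp before the 3′ end of the annotated gene. Its fold enrichment was 24.6 in the shFto list and 42.9 in the Dac51 list, against 11 in the shNC list. Within its own list it exceeded 90.5% of peaks for shFto, 96.8% for Dac51 and 76.5% for shNC. The exon or untranslated region under a peak was not looked up, as no exon annotation was used here. H2-K1 had a small peak near its 3′ end in the Dac51 list at 1.47 fold and in the shNC list at 1.36 fold, and none in the shFto list. Tap2 had a peak 843 to 903 bp after its start, at 2.93 fold in the shFto list and 5.93 fold in the Dac51 list, and none there in the shNC list. A peak of 61 bp near the 3′ end of Tap2, at chr17:34216141-34216201, was listed at 3.52 fold for both Dac51 and shNC, and not for shFto. Tapbp had a peak at its 5′ end in the Dac51 list, at 24.6 fold.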

How the data were processed

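Per the labels' protocols, a stranded total RNA kit was used for RNA and m6A libraries and a transposase kit for ATAC libraries. Build mm10 and the tools STAR 2.7.0f, Bowtie2 2.3.5, MACS2 2.1.3, Trim Galore 0.6.0, deepTools and Picard are listed in the submitters' processing notes. The counting tool, its strand setting and the peak thresholds are not given in the sources used here. The authors deposited raw counts per gene symbol in 2 RNA tables, per the file headers. The deposited ATAC lists give a fold enrichment, −log10 p, −log10 q and a score per peak of each library. The deposited m6A lists give, per peak, a p-value, a log10 score of the false discovery rate and the enrichment of antibody over input as a fold.

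The quasi-likelihood test of edgeR 4.0.16 (R 4.3.3) was run on the counts after filterByExpr and TMM scaling. P-values were adjusted by Benjamini-Hochberg over all tested genes, with a threshold of 0.05, and DESeq2 1.42.0 was an alternative. Standard errors are the log2 fold change divided by the square root of F. Tumour and T cell tables were fitted apart, the T cells as 6 libraries in 3 groups. The common biological coefficient of variation was 0.0906 in tumour cells and 0.199 in T cells. The step was run on simulated counts in which 200 genes had known changes, larger than most of those reported for the set. The simulation does not show how reliably smaller changes are called. The heavy chain sum left out H2-Ke6, which is not a class I gene. ATAC peaks within 2 kb of a gene were assigned to it, and a peak was at the start when it met the window from 250 bp before to 50 bp after it. Motifs and alignments used Python 3.11.15, pandas 2.3.3 and Biopython 1.88, with figures by Matplotlib 3.10.9. Sequences are from RefSeq, GRCm38.p6, the assembly of mm10. m6A inputs have no list of their own.

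The genes, the related lists and the tests were chosen with earlier results of these data known. Besides the set, up to 4 genes per related list with the smallest adjusted p in a comparison are named, and the 3 genes of at least 10 CPM that track the set best in each table. A gene that this rule picks from the interferon path is counted in its list but is not reported here. Same-numbered libraries did not deviate together in tumour cells (correlations -0.01 to 0.05), nor in T cells against shNC (-0.33 and -0.21), while shFto-1 and shFto-2 libraries of 1 number did (0.37). With 2 pairs the numbers were not taken to pair them.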

Additional observations from a re-analysis of the deposited data

Results flagged for a closer look

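T cells beside shFto-2 and beside shFto-1 differed, in the direct test between them, for the genes below (edgeR, adjusted over all tested genes, n = 2 libraries each). Tap1 had a log2 fold change of -0.66 between shFto-2 and shFto-1 (adjusted p = 0.0264), with both shFto-2 libraries below both shFto-1 libraries. In the interferon path, the log2 fold changes were -0.86 for Irf1 (adjusted p = 0.0222), -0.65 for Ifnar1 (adjusted p = 0.0363) and -0.95 for Ifngr1 (adjusted p = 0.0421). The 7 measured CD8 T cell markers summed to 1369 and 1227 CPM beside shFto-2 and to 1712 and 1644 CPM beside shFto-1, and their part in these differences was not tested.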

How the results depend on the processing

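In tumour cells the count of 5 higher genes was 5 with the replicate block and 4 to 5 with single libraries left out, and with the heavy chains summed it was 3 of the 4 genes that keep a row. The log2 fold change of the summed heavy chains was 0.19 to 0.38 over left-out libraries and 0.26 with the replicate block. Tap1 changed sign around 0, with 0.044 for library totals and -0.12 to 0.13 over left-out libraries.

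In T cells beside shFto-1 the count of 3 lower genes was 5 with RLE scaling, 6 with library totals, without the expression filter and with DESeq2, 4 with the replicate block, where H2-D1 was lost and H2-K1 and Tap1 were gained, and 1 of 4 with the heavy chains summed. It was 0 to 6 over left-out libraries, the summed heavy chains -0.46 to -0.25, and B2m -0.28 to 0.0055. Beside shFto-2 the count of 8 was 7 with the replicate block, where H2-T23 was lost, 7 without the filter, 6 to 8 over left-out libraries, and 4 of 4 with the heavy chains summed. Between shFto-2 and shFto-1 the count of 1 was 6 without the filter, 5 with DESeq2, 3 with the replicate block, 0 to 4 over left-out libraries. Because the numbers ran against each other between shFto and shNC T cells, a crossed replicate block was added after seeing the data, which gave 4, 8 and 2 calls for shFto-1, shFto-2 and the direct comparison. Library totals shifted the median of all genes to -0.15 beside shFto-1 and -0.20 beside shFto-2.

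The count of 8 genes with an ATAC peak in the gene or near it in every library held under each alternative run for it. Those alternatives did not ask for a peak at the start. The Tap2 start peak of shNC replicate 3 had a −log10 q of 7.99, below the minimum set in the stricter alternative. The count of 0 for m6A, made per gene and not per site, also held. Under its stricter cutoffs the shFto list kept only H2-Q4 of the set. That gene has a peak in every list, so these cutoffs checked little. Where the cause of a change was not given by the setting itself, the cause was not tested. H2-T23 in tumour cells rests on 23 to 78 counts a library, and the T cell comparisons rest on 2 libraries a group.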
